A study of Mus musculus with 4 samples.

Results

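The proteasome is the barrel-shaped protease that degrades proteins tagged with ubiquitin, and its genes were followed here in mouse osteoclast cultures treated with a p38α inhibitor. Members were the gene models whose symbol is Psma, Psmb, Psmc, Psmd, Psme, Psmf or Psmg followed only by digits, without the inducible immunoproteasome genes Psmb8, Psmb9 and Psmb10. This name rule found 45 of the 23390 models in the count table, and 44 of them had at least 40 counts summed over the 4 libraries. The exception was Psmb11, the thymus-specific catalytic subunit, with no count in any library. The member closest above the minimum was Psma8, the alpha subunit known from the testis, with 445 counts in all.

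Bone marrow cells of wild-type C57BL/6J mice were grown for 3 days in medium conditioned by L929 cells, a fibroblast line that supplies M-CSF. Adherent macrophages were replated and driven towards osteoclasts, the cells that resorb bone, with 40 ng/ml RANKL and M-CSF, and RNA was taken at day 4. One group received the solvent DMSO (2 libraries) and the other 10 µM BMS-582949, which inhibits the kinase p38α (2 libraries). The sources differ on whether the compound was present for 3 or 4 days, and no source says if libraries within a group stem from distinct cultures or animals, so the spread between libraries may be technical.

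The core particle of the proteasome is a stack of rings. Outer rings of alpha subunits gate the entrance, and inner rings of beta subunits hold the proteolytic sites. The cap, or regulatory particle, recognises ubiquitin chains, removes them and unfolds the substrate with a ring of ATPases. Dedicated chaperones assemble the particles and do not stay in the finished complex. In osteoclast precursors the proteasome is known for degrading the inhibitor of NF-kB after RANKL binds its receptor, and proteasome inhibitors are known to block osteoclast formation.

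Libraries held 35331889 to 39255925 counts. All 10 osteoclast markers examined were expressed, and their summed level was 87214 and 90141 counts per 1000000 (CPM) in the DMSO libraries against 14006 and 13913 with BMS-582949. All 9 macrophage markers were expressed too, at 9182 and 9285 CPM against 12601 and 13254. Of the macrophage markers 5 were called higher and 2 lower, while all 10 osteoclast markers were called lower. The 6 stromal markers summed to 629 and 575 CPM in DMSO against 530 and 528 CPM, with 4 called lower and none higher. Markers of neutrophils, B cells, T and NK cells, erythroid cells, mast cells and dendritic cells summed to at most 29.5 CPM in any library, with Ly6g, Cd3e, Ncr1, Mcpt4 and Siglech at 0. The part of the changed osteoclast, macrophage and stromal marker levels in the results below was not tested, and in bulk cultures fewer cells of a type and less RNA per cell cannot be told apart.

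CPM values of members below are scaled by TMM, a method that sets the bulk of genes to no change, and a positive log2 fold change means a higher level with BMS-582949 than with DMSO. Calls rest on edgeR's quasi-likelihood test over 13214 genes, at p-values under 0.05 after Benjamini-Hochberg adjustment. Scaling matters for this gene set. With library size only, the median over all genes tested moved on the log2 scale from 0.03 to 0.41, a shift of 0.38 that is as large as most changes of proteasome genes. Directions are therefore relative to TMM, and ratios of counts within a library, which no scaling changes, are given beside them.

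As a set the proteasome moved little and not as one. Of the 44 members, 19 rose with BMS-582949 (43.2%) and 8 fell (18.2%), where 30.5% and 29.7% of all genes tested were called higher and lower. Their median log2 fold change was 0.03, as for all genes tested. The interquartile range was -0.10 to 0.29 for members and -0.50 to 0.50 for all genes tested. No member reached a 2-fold change in edgeR's fit with TMM, which 23.9% of all genes tested did. Both BMS-582949 libraries lay above both DMSO libraries for 21 members and below them for 15, where the shares over all genes were 41.4% and 38.7%. With library size only, 39 members were called higher and none lower, also at an unadjusted p under 0.05 (background 51.0% higher and 17.0% lower), while DESeq2 called 18 higher and 8 lower and limma-voom 19 and 8.

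**Figure D1:**
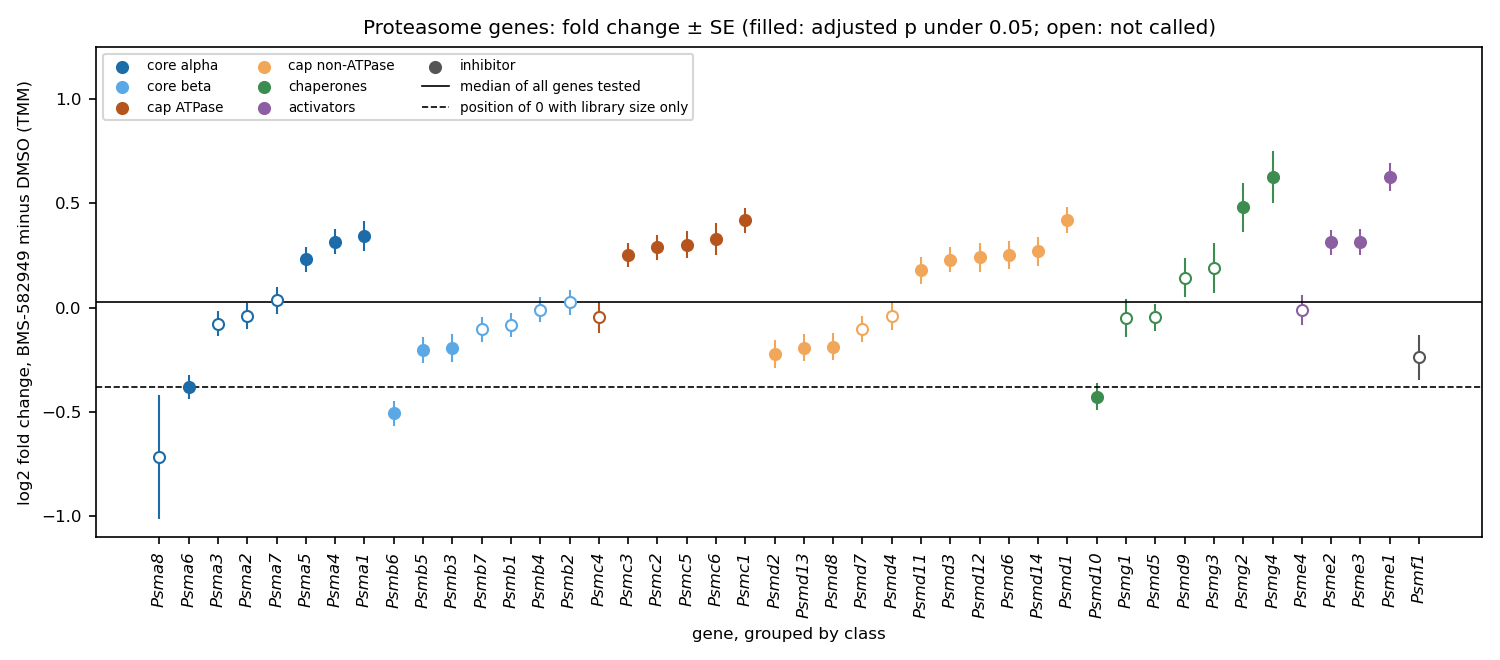
Log2 fold change ± SE of each of the 44 proteasome genes (vertical axis, BMS-582949 minus DMSO, TMM scaling), grouped by class along the horizontal axis, with filled points for called genes. The solid line marks the median of all genes tested (0.03) and the dashed line lies 0.38 below 0, where 0 falls with library size only. Beta subunits lie at or below the solid line, 6 of the 7 of them above the dashed one, while most ATPases of the cap lie above it.

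Before any change between groups, the median levels differed between the classes, while their ranges overlapped. Lengths were those of the longest principal coding transcript. Per kilobase, Psmb5 was the highest member in both groups, at 413 CPM per kb in DMSO and 359 with BMS-582949. Among the 14 core genes other than Psma8 the median was 184 CPM per kb in DMSO, and the lowest was Psma3 at 37.1. Cap genes had a median of 79.8 CPM per kb and ran from 27.3 for Psmd11 to 263 for Psmd8. Chaperones were the lowest of these classes, with a median of 20.2 CPM per kb. Psma8 stood at 2.27 CPM per kb in DMSO and 1.38 with BMS-582949, the lowest of all members. Although the subunits of a particle are built in at fixed numbers, their RNA levels per kb differed 11.1-fold between the highest and lowest core gene other than Psma8 in DMSO and 10.2-fold with BMS-582949. For the cap this span went from 9.65-fold to 7.49-fold, and for the chaperones from 4.38-fold to 2.95-fold. These levels depend on the transcript taken for the length, so the ranks of genes and these spans are only rough. Psma3, the lowest core gene other than Psma8, was given 2846 bases, and Psmb5 was given 899.

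**Figure D2:**
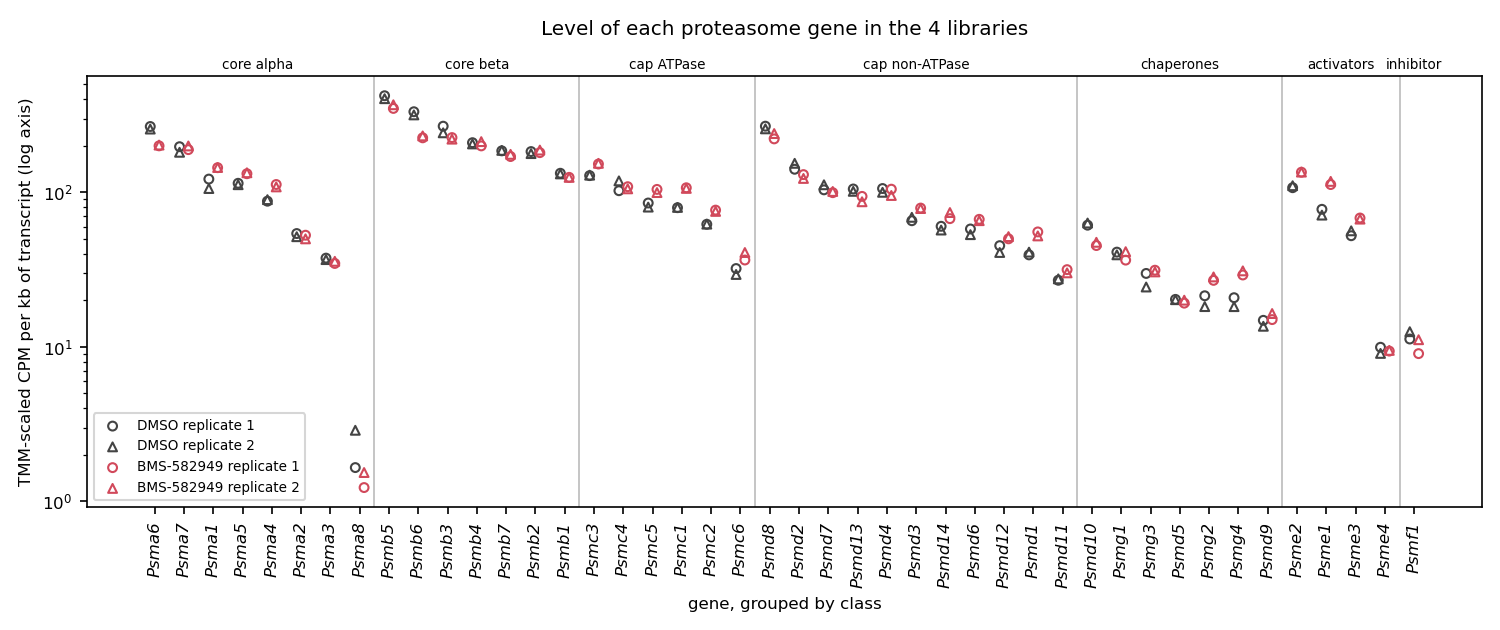
Level of each proteasome gene in TMM-scaled CPM per kb of its longest principal coding transcript (log axis), with 1 symbol per library. Genes are grouped by class and ordered by level in DMSO. Psmb5 is highest at 413 CPM per kb in DMSO and Psma8 lowest at 2.27, and the libraries of a gene lie close together compared with the spread between genes.

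With TMM no beta subunit of the core rose. Of 7 members 3 fell (42.9%, against 29.7% of all genes tested) and 4 were not called. No beta subunit was called higher by edgeR, DESeq2 or limma-voom, nor at an unadjusted p under 0.05 by any of them. Over all genes tested edgeR called 30.5% higher. The median log2 fold change was -0.10. With library size only 6 of the 7 were called higher and the median was 0.28, and Psmb2 was called higher with each library's trend on transcript length and GC content removed (0.26, adjusted p = 0.0013). Psmb6, which carries the caspase-like site, had 266 and 253 CPM in DMSO and 180 and 185 CPM with BMS-582949. Both treated libraries were clearly lower, and no values overlapped. Its mean went from 259 ± 8.64 to 183 ± 3.61 CPM (SD, n = 2 each). In edgeR's fit it changed by -0.51 ± 0.06 on the log2 scale (SE, adjusted p = 1.3e-05), and with library size only by -0.13, no longer called (adjusted p = 0.076). Psmb6 lies on chromosome 11 at 70525367 to 70527858 (GRCm38).

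Psmb5 carries the chymotrypsin-like site, which the drug bortezomib blocks. It had 380 and 363 CPM in DMSO and 314 and 332 CPM with BMS-582949, so the groups did not overlap. The log2 fold change was -0.20 ± 0.06 (edgeR adjusted p = 0.014). That direction turned with library size only (0.18, adjusted p = 0.018) and with the length and GC trend removed (0.11, adjusted p = 0.085), and the call ended without DMSO replicate 1 (adjusted p = 0.078), without BMS-582949 replicate 1 (0.083) and with upper-quartile scaling (0.073). Psmb5 is on chromosome 14 at 54614119 to 54618022. A processed pseudogene matches 88.5% of its transcript at 98.9% identity, and 12.1% of its exon length overlaps Mir686, so its counts are less certain than those of Psmb6.

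The third catalytic gene, Psmb7 (trypsin-like site, chromosome 2, 38588036 to 38644087), had 215 and 217 CPM in DMSO and 198 and 205 CPM with the inhibitor. These values did not overlap, but the log2 fold change of -0.10 was not called (edgeR adjusted p = 0.15). It was called with the length and GC trend removed (-0.19, adjusted p = 0.013). Exons of Psmb7 overlap Nek6 over 11.8% of their length. Because the 3 catalytic subunits enter the same ring, their counts can be set against each other within a library. Per count of Psmb5 the DMSO libraries held 0.699 and 0.697 counts of Psmb6, against 0.573 and 0.558 after treatment. Per count of Psmb7 the DMSO libraries held 1.23 and 1.17, against 0.909 and 0.905. Psmb6 was thus lower relative to both partners in both treated libraries, under any scaling of whole libraries. Trends on transcript length and GC content differ between genes and do not cancel in these ratios. With them removed the log2 fold changes were -0.38 for Psmb6, -0.19 for Psmb7 and 0.11 for Psmb5.

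Among the structural beta subunits, Psmb3 fell by 0.19 on the log2 scale (adjusted p = 0.024), from 205 and 186 CPM to 173 and 169 CPM. It was called higher with library size only (0.19), and its fall was not called without DMSO replicate 1 (-0.12, adjusted p = 0.21), with upper-quartile scaling (0.11) or with the length and GC trend removed (0.078). Psmb1, Psmb4 and Psmb2 were not called, with log2 fold changes of -0.08, -0.01 and 0.03. Psmb2 and Psmb4 overlapped between groups, while Psmb1 stood at 234 and 232 CPM in DMSO and 220 in each treated library.

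Alpha subunits split both ways. Of 8, Psma1, Psma4 and Psma5 rose, Psma6 fell and 4 were not called, with a median log2 fold change of 0.00. These are 37.5% higher and 12.5% lower, against 30.5% and 29.7% of all genes tested. Psma1 had 146 and 127 CPM in DMSO and 174 CPM in both BMS-582949 libraries. Its treated libraries were alike and above both controls, and the log2 fold change was 0.35 ± 0.07 (edgeR adjusted p = 0.0012). Psma4 changed by 0.32 ± 0.06, from 102 and 105 to 131 and 126 CPM, and Psma5 by 0.23 ± 0.06. Processed pseudogenes match 67.2% of the Psma4 transcript at 96.8% identity and 76.8% of that of Psma5 at 98.6%. The counts of Psma4 and Psma5 are therefore less certain. Psma6 had 278 and 268 CPM in DMSO against 209 and 211 CPM, and changed by -0.38 ± 0.06 (adjusted p = 1.3e-04). With library size only Psma6 stood at 0.00 (adjusted p = 0.99), while the risers of the alpha ring had 0.61 to 0.73. Psma2, Psma3 and Psma7, which form the ring with them, lay between -0.08 and 0.04 and were not called. With the length and GC trend removed Psma3 was called lower (-0.21, adjusted p = 0.0086) and Psma7 higher (0.22, adjusted p = 0.0092). Psma8 was listed with 87 and 154 counts in DMSO and 94 and 110 with BMS-582949, and its log2 fold change of -0.72 ± 0.30 was not called (adjusted p = 0.056). The controls differed from each other more than the treated libraries did, and 1 library moved the value far. It was called without DMSO replicate 1 (-1.06, adjusted p = 0.0042) or BMS-582949 replicate 2 (-0.90, 0.012), stood at -0.26 without DMSO replicate 2 (adjusted p = 0.58), and was called by a narrow margin with DESeq2 size factors (0.045) and with no low-count filter (0.040).

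Summed over members, beta subunits had 1.53 and 1.55 counts per count of alpha subunits in the DMSO libraries. With BMS-582949 the ratio was 1.34 and 1.37. The difference was -0.18 on the log2 scale, against SDs of 0.014 and 0.026 between the libraries of a group.

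In the cap the ATPases behaved most alike. These Psmc genes encode the ring that unfolds substrates and threads them into the core. Of 6, 5 rose and none was called lower by edgeR, DESeq2 or limma-voom, or at an unadjusted p under 0.05, with a median log2 fold change of 0.30. The share that rose was 83.3%, where edgeR called 30.5% of all genes tested higher and 29.7% lower. Psmc1 had 127 CPM in each DMSO library and 170 and 169 CPM with BMS-582949. The libraries of a group were alike, and the groups lay far apart by comparison. The log2 fold change was 0.42 ± 0.06 (edgeR adjusted p = 5.7e-05). Psmc6 (0.33), Psmc5 (0.30), Psmc2 (0.29) and Psmc3 (0.25) followed, each without overlap between groups. Psmc4 was the exception at -0.05 ± 0.07 (adjusted p = 0.61). Its DMSO libraries, 148 and 171 CPM, spanned the treated ones at 157 and 152 CPM. The rise of Psmc2 was 0.12 and not called with the length and GC trend removed (adjusted p = 0.084). A processed pseudogene matches 82.1% of the Psmc1 transcript at 95.6% identity, so the counts of Psmc1 are less certain.

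Of the 11 non-ATPase genes of the cap, 6 rose (54.5%), 3 fell (27.3%) and 2 were not called, with a median of 0.18. Over all genes tested 30.5% rose and 29.7% fell. Psmd1, a large scaffold subunit at the base of the cap, rose furthest, from 123 and 128 CPM to 173 and 163 CPM. The log2 fold change was 0.42 ± 0.06 (edgeR adjusted p = 9.0e-05). Psmd14, the metalloprotease that cuts ubiquitin chains off the substrate, went from 93.0 and 87.9 CPM to 104 and 114 CPM (0.27), and without BMS-582949 replicate 2 its call ended (0.18, adjusted p = 0.061). The lid subunits Psmd3, Psmd6 and Psmd12 rose by 0.23, 0.25 and 0.24, and Psmd11 by 0.18. Calls for Psmd6 (adjusted p = 0.052) and Psmd12 (0.083) ended without DMSO replicate 2. Psmd11 was not called in any fit that left out a library (adjusted p = 0.052 to 0.17) or with DESeq2 size factors (0.062), and with the length and GC trend removed it stood at -0.0030.

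The other large scaffold, Psmd2, on which ubiquitin-carrying shuttle proteins and the deubiquitinase Usp14 dock, went the other way. It had 418 and 457 CPM in DMSO and 386 and 365 CPM with BMS-582949, and was the member with the most counts. Treated libraries were below both controls, with a log2 fold change of -0.22 ± 0.07 (edgeR adjusted p = 0.013), and the call ended without DMSO replicate 2 (adjusted p = 0.11). Psmd8 fell from 413 and 397 to 342 and 370 CPM (-0.19) and Psmd13 from 209 and 202 to 187 and 173 CPM (-0.19). Their calls ended when a library was left out, for Psmd8 without DMSO replicate 1 (adjusted p = 0.11) or BMS-582949 replicate 1 (0.17), and for Psmd13 without DMSO replicate 1 (0.086) or BMS-582949 replicate 2 (0.12). They ended as well with upper-quartile scaling (0.12 for Psmd8 and 0.094 for Psmd13) and with the length and GC trend removed (-0.090 and -0.083, adjusted p = 0.20 and 0.24). All 3 were called higher with library size only (0.16, 0.19 and 0.19). Psmd7, the partner of Psmd14, changed by -0.10 and the ubiquitin receptor Psmd4 by -0.04, and neither was called. Exons of Psmd13 overlap Sirt3 over 10.1% of their length, and processed pseudogenes match most of the transcript of Psmd2. Another matches 55.0% of the Psmd14 transcript at 91.3% identity.

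Within the cap the summed counts of the 2 kinds of subunit moved unequally. ATPase genes had 0.401 and 0.404 counts per count of non-ATPase genes in DMSO and 0.482 and 0.485 with BMS-582949. The difference was 0.26 on the log2 scale, and the libraries of a group differed by under 0.02. Sums weigh genes by their counts. Psmd2 and Psmd8, which fell with TMM, had the most counts of the non-ATPase genes (12994 and 12842 in DMSO replicate 1). The median log2 fold changes of the 2 kinds, 0.30 and 0.18, lay closer together.

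Core and cap were compared as wholes. Of 15 core genes 3 rose (20%) and 4 fell (26.7%), with a median log2 fold change of -0.08. Of 17 cap genes 11 rose (64.7%) and 3 fell (17.6%), with a median of 0.24. Over all genes tested these shares were 30.5% and 29.7%, so the share of core genes that fell was near the background. The gap between the medians of cap and core was 0.32, and it lay between 0.28 and 0.33 in each of the other 14 fits. A change of scaling shifts all genes about alike, so such fits could hardly move the gap. It was 0.33 with the length and GC trend removed and 0.28 to 0.32 with a library left out. Counting all reads of a class, the core had 1.04 and 0.986 counts per count of the cap in DMSO, against 0.899 and 0.926 with the inhibitor. Both treated libraries were below both controls. On the log2 scale the ratio was 0.015 ± 0.051 in DMSO and -0.132 ± 0.029 with the inhibitor (SD, n = 2 each), a difference of -0.15. An exact two-sided permutation test gave p = 0.333, which is the smallest p that 2 libraries against 2 can give, so no comparison of this kind can pass a threshold here (adjusted p = 0.333 over the 3 class ratios).

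Summed over the 44 members, proteasome RNA made up 5545 and 5420 CPM in DMSO and 7240 and 7163 CPM with BMS-582949, 1.31-fold higher (exact permutation p = 0.333). This share is of all counts, without TMM. The core share went from 2483 and 2366 to 2975 and 2976 CPM and the cap share from 2397 and 2401 to 3308 and 3215 CPM. With the TMM-scaled total as the denominator the core was lower (-0.086 on the log2 scale) and the cap higher, so the direction for the core hangs on the denominator. For all 44 members the difference went from 0.39 on the log2 scale to 0.012 (exact permutation p = 0.667), so the rise of the whole share did not remain either.

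**Figure D3:**
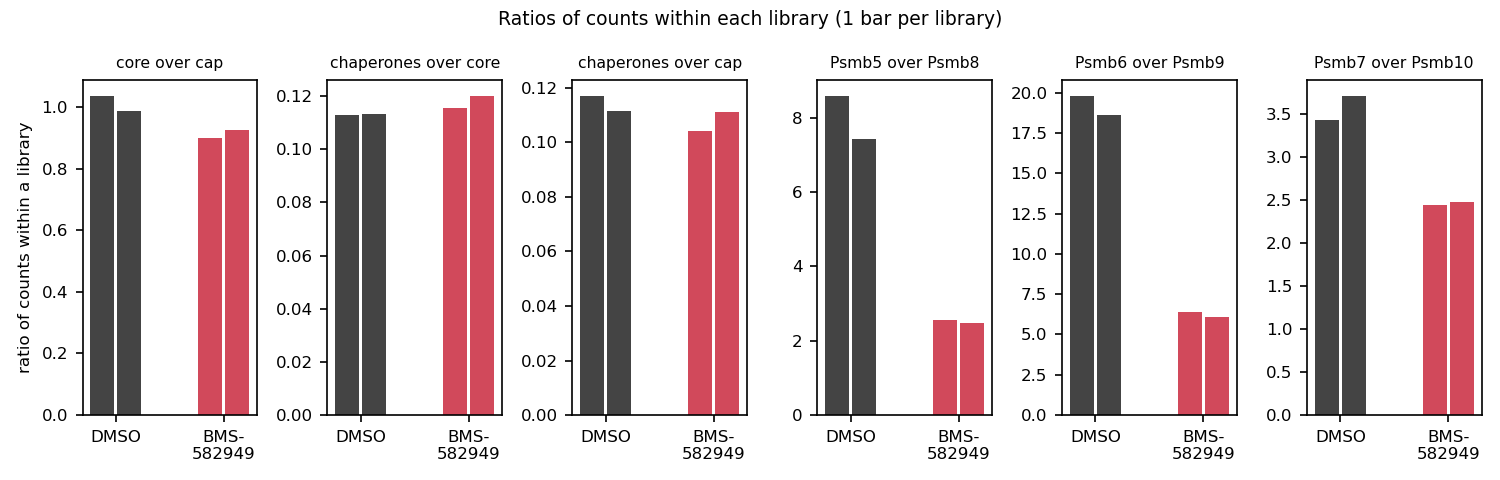
Ratios of counts within each library, 1 bar per library (dark grey DMSO, red BMS-582949), each panel with its own vertical axis from 0. Core over cap goes from 1.04 and 0.986 to 0.899 and 0.926, and Psmb5 over Psmb8 from 8.59 and 7.42 to 2.55 and 2.48.

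Chaperones went both ways. Of 7, Psmg2 and Psmg4 rose, Psmd10 fell and 4 were not called, with a median of 0.14. These are 28.6% higher and 14.3% lower, where 30.5% and 29.7% of all genes tested were, so neither share exceeds the background. Psmg4, which with Psmg3 helps to build the alpha ring, had 11.5 and 10.1 CPM in DMSO and 16.2 and 17.2 CPM with BMS-582949. The groups were well separated, with a log2 fold change of 0.63 ± 0.12 (edgeR adjusted p = 8.2e-04), and its partner Psmg3 had 26.4 and 21.6 against 27.7 and 27.0 CPM (0.19, not called, adjusted p = 0.20). In the other pair of alpha-ring chaperones, Psmg2 went from 22.7 and 19.3 to 28.5 and 30.0 CPM (0.48 ± 0.12, adjusted p = 0.0035). Its partner Psmg1 had 42.9 and 41.2 against 38.0 and 43.2 CPM, overlapping between groups, and was not called (-0.05, adjusted p = 0.67). So in each pair one gene was called and the other was not, and the difference between partners was not tested.

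Psmd10, also known as gankyrin, assists the assembly of the ATPase ring. It had 87.7 and 90.6 CPM in DMSO and 64.8 and 68.0 CPM with BMS-582949, the clearest fall outside the core. The log2 fold change was -0.43 ± 0.07 (edgeR adjusted p = 1.3e-04), and -0.04 with library size only (adjusted p = 0.55). Psmd5 and Psmd9, which act at the same step, changed by -0.05 and 0.14 and were not called. A noncoding model overlaps 25.5% of the exon length of Psmd9. Together the 7 chaperones had 0.113 counts per core count in each DMSO library and 0.116 and 0.120 with BMS-582949, and per cap count 0.117 and 0.111 against 0.104 and 0.111. With summed counts neither ratio moved by more than 0.09 on the log2 scale (exact permutation p = 0.333 for each). With the mean of log2 counts, which weighs each gene alike, chaperones over core differed by 0.22 and chaperones over cap by -0.0085. With Psmd5, Psmd9 and Psmd10 counted as cap by their names, the chaperone to cap ratio turned from -0.09 to 0.18. The chaperone to core ratio then went from 0.06 to 0.31.

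Activators are rings or single chains that cap the core without using ubiquitin. Psme1, Psme2 and Psme3 rose (75%) and Psme4 was not called, with a median of 0.31 over the 4. None was called lower by edgeR, DESeq2 or limma-voom, or at an unadjusted p under 0.05. Over all genes tested edgeR called 30.5% higher and 29.7% lower. Psme1, a subunit of the interferon-inducible PA28 ring (chromosome 14, 55578123 to 55581529), had 86.4 and 79.3 CPM in DMSO and 125 and 131 CPM with BMS-582949. Both treated libraries were far above both controls, with a log2 fold change of 0.63 ± 0.07 (edgeR adjusted p = 5.2e-06). Its neighbour and ring partner Psme2 (chromosome 14, 55587441 to 55591113) went from 103 and 106 to 130 CPM in both libraries (0.31 ± 0.06, adjusted p = 7.2e-04). Psme2b, a copy that matches 82.5% of the Psme2 transcript at 99.4% identity, was counted separately with 1002 and 1033 counts in DMSO and 1898 and 1979 with BMS-582949, so how reads were divided between them is uncertain. Psme1 had 0.838 and 0.746 counts per count of Psme2 in DMSO and 0.962 and 1.01 with BMS-582949.

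Psme3, the subunit of a nuclear activator ring, rose from 140 and 150 to 182 and 179 CPM (0.32 ± 0.06, adjusted p = 8.7e-04). Psme4, the single-chain activator PA200, had 64.5 and 58.9 CPM in DMSO and 61.0 and 61.6 CPM with BMS-582949, with no difference beyond the spread (-0.01). Psmf1, a protein first described as an inhibitor of the core, was at 42.8 and 47.8 against 34.4 and 42.4 CPM. The treated libraries were the lower ones, but the log2 fold change of -0.24 was not called (adjusted p = 0.074). Without BMS-582949 replicate 2 it was called at -0.42 (adjusted p = 4.8e-04) and without DMSO replicate 1 at -0.31 (adjusted p = 0.037), while it stood at -0.099 without BMS-582949 replicate 1 (0.48) and at -0.16 without DMSO replicate 2 (0.34). With library size only its sign turned (0.14, not called).

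A correction for transcript length and GC content changed many of these values. With each library's trend on them removed, 6 members lost their call (Psmb3, Psmb5, Psmc2, Psmd8, Psmd11 and Psmd13). Calls were gained by 6 others, of which Psmb2 and Psma7 were higher and Psma3, Psmb7, Psmd5 (-0.17, adjusted p = 0.030) and Psmf1 (-0.28, 0.045) lower. Among those that were called both ways, Psmg4 went to 1.04, Psmc5 to 0.50, Psma5 to 0.44, Psmc3 to 0.39 and Psmd3 to 0.37. Smaller values came out for Psmc6 (0.21), Psma6 (-0.15) and Psmd10 (-0.22). Psmb6 remained lower at -0.38.

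Levels and changes were set side by side. Of the 10 members highest per kb with BMS-582949, 5 fell and 1 rose (median -0.15). Of the other 34, 3 fell and 18 rose (median 0.21). In DMSO Psmd2, which fell, ranked 10 and Psmc3, which rose, ranked 12, and only Psmc3 is among the 10 taken here. Spearman's rho between fold change and level per kb was -0.25 over the 44 members and -0.34 over the 43 other than Psma8, and over 12583 tested genes with a coding transcript it was -0.14. Genes in one library share its depth and scaling, and this split was chosen after the values were seen, so these numbers only describe. With transcript length rho was -0.02 over the 43.

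Immunoproteasome genes, left out by the name rule, gave the largest contrast with the constitutive core. Psmb8, Psmb9 and Psmb10 replace Psmb5, Psmb6 and Psmb7 in the ring when cells meet interferon. Psmb8 went from 44.2 and 49.0 to 123 and 134 CPM, a log2 fold change of 1.46 ± 0.08 (edgeR adjusted p = 6.5e-09). Psmb9 went from 13.4 and 13.6 to 28.1 and 30.4 CPM (1.11) and Psmb10 from 62.8 and 58.4 to 81.1 and 82.5 CPM (0.43), and both were called. Within libraries, Psmb5 had 8.59 and 7.42 counts per count of Psmb8 in DMSO and 2.55 and 2.48 with BMS-582949, a 3.17-fold lower ratio. For Psmb6 over Psmb9 the ratio fell from 19.8 and 18.6 to 6.42 and 6.09, and for Psmb7 over Psmb10 from 3.43 and 3.71 to 2.44 and 2.48. All 3 ratios had separate groups (exact permutation p = 0.333 for each, adjusted p = 0.333 over the 3). Trends on transcript length and GC content do not cancel in these ratios, and with them removed Psmb5 stood at 0.11 instead of -0.20. The copy and overlaps given above for Psmb5 and Psmb7 apply here too. Of the counts of these 6 catalytic genes, the inducible ones made up 12.3% (95% interval 11.9% to 12.7%) and 12.7% in DMSO and 25.1% (24.7% to 25.5%) and 25.5% with BMS-582949. Intervals are exact Clopper-Pearson intervals and cover counting error only.

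The other proteins that serve the proteasome were taken from a list of 36 genes, of which 34 were tested, the 3 immunoproteasome genes included. Of these, 13 rose, 11 fell and 10 were not called (backgrounds of 30.5% and 29.7%), and with library size only 23 rose and 4 fell. The deubiquitinases of the cap rose. Usp14, which docks on Psmd2 and trims ubiquitin chains, had 106 and 109 CPM in DMSO and 162 and 170 CPM with BMS-582949 (0.63 ± 0.06, edgeR adjusted p = 2.5e-06). Uchl5, which binds the ubiquitin receptor Adrm1, went from 23.7 and 23.2 to 36.1 and 38.6 CPM (0.67 ± 0.10, adjusted p = 1.3e-04). Adrm1 itself, a cap subunit that the name rule misses, was at 0.01 and not called (0.15, adjusted p = 0.049, with the length and GC trend removed). Sem1, the smallest cap subunit, had 72.4 and 72.6 against 62.1 and 57.4 CPM (-0.28), and Pomp, the chaperone of beta-ring assembly, 193 and 180 against 152 and 159 CPM (-0.26). Both were called lower with TMM, and not with library size only (0.10 and 0.12, not called).

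Transcription of proteasome genes is known to be driven by Nfe2l1, a factor that has to be deglycosylated by Ngly1 and cut by Ddi2 before it acts. Nfe2l1 had 169 and 183 CPM in DMSO and 138 and 124 CPM with BMS-582949 (-0.42 ± 0.07, adjusted p = 2.1e-04), and was at -0.04 and not called with library size only. Ngly1 fell from 43.8 and 36.9 to 17.6 and 16.6 CPM (-1.24 ± 0.12, adjusted p = 1.7e-06), also with library size only (-0.86). Ddi2 rose from 51.3 and 57.2 to 82.5 and 75.9 CPM (0.55). The related factor Nfe2l2, known for the oxidative stress response, went from 83.3 and 84.6 to 117 and 122 CPM (0.50). Zfand2a, an arsenite-inducible protein that binds the cap, fell from 107 and 123 to 49.2 and 47.2 CPM (-1.26), and the related Zfand5 changed by -0.60.

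**Figure D4:**
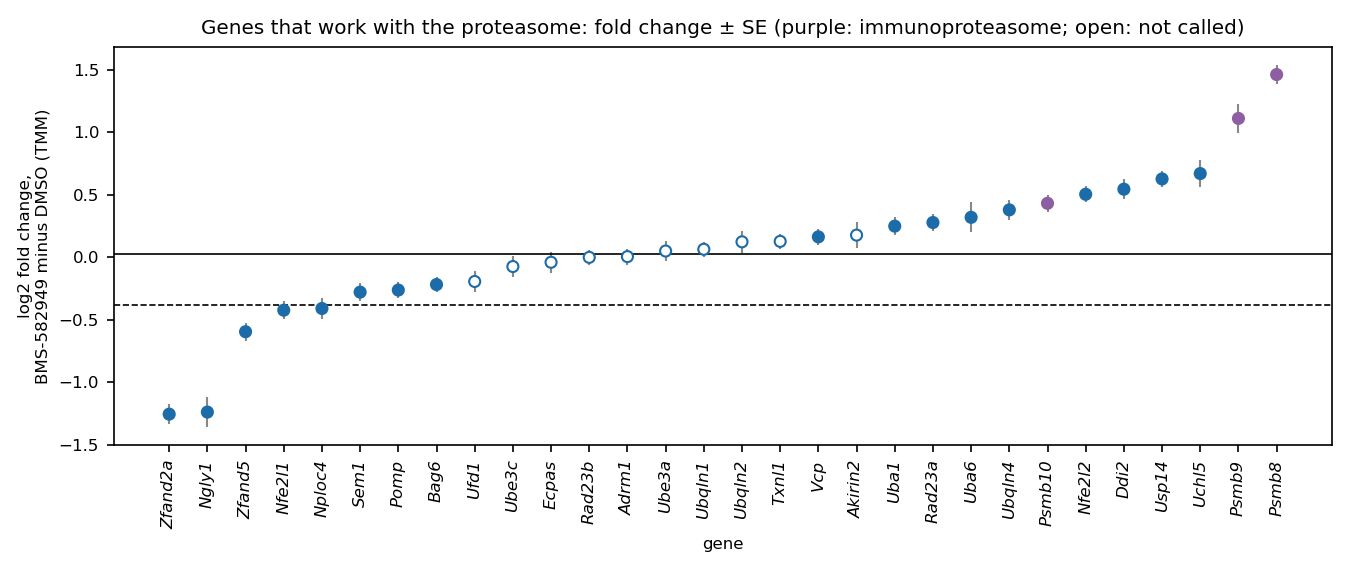
Log2 fold change ± SE (BMS-582949 minus DMSO, TMM scaling) of 30 tested genes that work with the proteasome, in order of fold change, with filled points for called genes and the immunoproteasome genes in purple. The solid line is the median of all genes tested and the dashed line lies 0.38 below 0, where 0 falls with library size only. Zfand2a and Ngly1 are lowest at -1.26 and -1.24 and Psmb8 highest at 1.46.

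Nfe2l1 and Nfe2l2 are known to bind antioxidant response elements, so promoters were searched for the core of that element, TGACNNNGC, on both strands (no other motif was searched). Windows ran from 250 bases before to 50 after the RefSeq start site (GRCm38.p6). A window was found for 36 of the 44 members, and 6 of them (16.7%) held the motif, against 14.0% of 27025 genes in the same table. In the core 2 of 11 genes had it (Psmb5 and Psmb6), and in the cap 2 of 14 (Psmc6 and Psmd12). The others were the chaperone gene Psmd9 (0.14) and the activator gene Psme4 (-0.01), neither of them called. Stretches around the core and cap sites are shown so that the matches can be seen, with the motif in capitals, and each reads 5′ to 3′ on the strand of its gene.
Psmb6 (chr11:70525323-70525356, plus strand): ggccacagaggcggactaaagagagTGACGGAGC
Psmb5 (chr14:54618009-54618067, minus strand): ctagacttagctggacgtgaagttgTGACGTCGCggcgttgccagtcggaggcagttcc
Psmc6 (chr14:45329574-45329630, plus strand): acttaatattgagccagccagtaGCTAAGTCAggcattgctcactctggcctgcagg
Psmd12 (chr11:107479278-107479314, plus strand): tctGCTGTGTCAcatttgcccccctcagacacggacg
In Psmb6 the motif ends at the base before the start site, and in Psmb5 it lies 47 to 39 bases before it. The sites of Psmc6 and Psmd12 are on the opposite strand, 227 to 219 and 247 to 239 bases before the start. The share of 16.7% is close to that of all promoters, so nothing is read from the direction of these genes, and no match says only that these letters are not in the window.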

How the data were processed

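RNA from 4 libraries was compared, 2 with DMSO and 2 with BMS-582949, grouped by the treatment label. The authors' table lists unnormalized counts for each gene model, as whole numbers with unequal library sums. Build GRCm38 and the tools HISAT2 2.0.4, Trimmomatic 0.36 and DESeq2 1.30.1 are named, per the submitters' processing notes. How reads were counted, with which annotation and strand setting, is not given in the sources used here. Symbols and positions came from GENCODE M21 for 22022 of 22036 Ensembl identifiers. Promoters came from RefSeq.

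The main test was edgeR 4.0.16 under R 4.3.3 (filterByExpr with a minimum count of 10, TMM, quasi-likelihood F test, no covariates, 2 residual degrees of freedom), which was checked on simulated data. The SE of a fold change is its size divided by the square root of F. All 44 members passed the filter. Library ratios were tested by exact permutation. Alternatives were other scalings and filters, DESeq2 1.42.0, limma-voom (limma 3.58.1), a replicate block, removal of a length and GC trend (loess) and leaving out libraries. Near-identical copies were transcripts matching at least 50% of a member at 90% identity or more. The members and lists were chosen with earlier results of these data known. Any member could be named, and of the 36 related genes 10 were named whatever their result, with the 3 largest called changes in each direction, and Ddi2 was added after its values were seen. The list's counts cover the 34 tested, of which 4 are not reported here one by one.

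Within each group the counts of the 2 libraries differed by more than sampling noise. The chi-square divided by its degrees of freedom was 9.62 (DMSO) and 13.7 (BMS-582949). This excess cannot tell whether the libraries stem from distinct cultures or animals, and each was counted as a sample.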

Additional observations from a re-analysis of the deposited data

How the results depend on the processing

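Scaling was the choice that mattered most. With library size only, 39 members were called higher and 0 lower (edgeR, also 0 at an unadjusted p under 0.05), 23 and 4 of the related genes were, and the class medians were 0.41 for all members, 0.31 for the core (reversed), 0.62 for the cap, 0.53 for chaperones and 0.70 for activators. Upper-quartile scaling left 4 members lower, with medians of 0.090 for all members, 0.30 for the cap and 0.37 for activators. DESeq2 size factors and the DESeq2 test gave 0.21 for the cap and 0.29 for activators. With the length and GC trend removed the medians were 0.13 for all members, 0.21 for the cap and 0.39 for activators. An adjusted p under 0.01 left 3 members lower, and a log2 fold change of at least 1 left 0 in either direction. With classes by name alone the medians were 0.20 for the cap and 0.34 for chaperones, and chaperones over cap turned to 0.18. Chaperones over core went to 0.31 with classes by name and to 0.22 with the mean of log2 counts. With the TMM-scaled total the shares of core (-0.086) and chaperones (-0.026) turned. The cause of these shifts was not tested. Of genes called in at least one of the 2 fits compared, those turned by library size only were Psme4 (0.37), Psmc4 (0.34), Psmd13 (0.19), Psmd2 (0.16), Psmd4 (0.34), Psmd7 (0.28), Psmd8 (0.19), Psmd5 (0.34), Psmg1 (0.33), Psma2 (0.34), Psma3 (0.31), Psma6 (9.4e-04), Psmb1 (0.30), Psmb3 (0.19), Psmb4 (0.37), Psmb5 (0.18), Psmb7 (0.28), Sem1 (0.10), Pomp (0.12), Ecpas (0.34), Ube3c (0.31), Rad23b (0.38) and Bag6 (0.16), and those turned with the length and GC trend removed were Psmd11 (-0.0030), Psmb5 (0.11) and Bag6 (0.0096). Among genes called in neither, 2 more changed sign with library size only and 7 with the trend removed.

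Leaving out each library, with the lone library of a group assumed to vary like the other group, gave 16 to 18 members higher and 6 to 9 lower. Medians ran from -0.0092 to 0.078 for all members, from -0.10 to -0.06 for the core, 0.20 to 0.25 for the cap, 0.05 to 0.21 for chaperones and 0.28 to 0.35 for activators. Core over cap ran from -0.18 to -0.11. Leaving out members with a near-identical copy or over 10% exon overlap, an alternative chosen after seeing the data, changed no direction of a class ratio or share and gave -0.22 for core over cap. With a replicate block 18 members were higher and 10 lower: Psmd11 lost its call and Psma8 and Psmf1 gained one. Deviations of same-numbered libraries correlated at -0.08, so the numbers were not taken to pair them. Relative to level, counting error is largest for Psma8 (445 counts in all), Psmg4 (2140), Psmg2 (3876) and Psmg3 (3894), and smaller for the others.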
